A study of Rattus norvegicus and Mus musculus with 10 samples.

Results

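Gata3, Rora, Foxp3, Ikzf2, Maf, Zbtb16, Bcl6 and Bhlhe40 are 8 transcription factors that mark helper T cell fates and innate lymphoid cells (ILCs). They were listed by symbol, and each symbol matched 1 gene among the 32883 rat and the 31053 mouse genes of the deposited tables. Their transcripts were followed in the cell clusters that the authors named as T, natural killer (NK) or innate lymphoid cells. Droplet single-cell RNA libraries were made from the borders of the central nervous system (CNS) of healthy Lewis rats and from the skull dura of C57BL/6 mice. The rat libraries came from dura, pia, choroid plexus (CP), CNS, cerebrospinal fluid (CSF) and blood, with 25 naive rats in the study. The mouse libraries came from 3 pooled animals at the peak of active experimental autoimmune encephalomyelitis (EAE, an immunisation model of multiple sclerosis) and from 4 pooled animals that were not immunised. Cells of dura, pia, CP and CNS were sorted as CD45+ and negative for a CD45 antibody given into the blood stream, CSF cells were not sorted, and blood leukocytes came off a density gradient. The mouse groups were taken from the sample titles, because a condition label reads EAE for every mouse sample.

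GATA3 drives type 2 helper T cells and is needed by group 2 ILCs, which respond to tissue alarm signals such as IL-33 through the receptor encoded by Il1rl1. RORα, from Rora, is needed for group 2 ILC development and also acts in type 17 T cells. FOXP3 defines regulatory T cells, and Helios, from Ikzf2, is found in many of them. c-MAF promotes cytokine programmes of type 17, follicular and regulatory T cells, PLZF (Zbtb16) gives innate-like T cells their effector state, BCL6 directs follicular helper T cells, and BHLHE40 controls cytokine output of activated T cells.

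Each group was 1 pooled library, so no test between groups was possible and no p-value is given. Levels are unique molecular identifiers (UMIs) of a gene per 1000000 UMIs of the cluster (CPM), with exact Poisson 95% intervals. Ratios have exact conditional binomial 95% intervals, and shares of cells have exact Clopper-Pearson 95% intervals. All of these cover counting error only, not the spread between animals. A difference was called when the CPM ratio passed 2-fold either way and the gene had 20 or more UMIs over both sums. In sums of this kind, fewer expressing cells and less RNA per expressing cell cannot be told apart. Libraries held between 2272 and 4953 cells with a cluster name, of which between 124 and 1858 were T, NK or innate lymphoid cells, and the median UMI count per cell lay between 981 and 2704 in the rat. In the mouse it was 11743 in EAE and 4163.5 in naive dura, and the lowest EAE cell held 5722 UMIs, against 503 in naive dura. In the rat 243 barcode sequences and in the mouse 7 occurred in more than 1 library.

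The names of the clusters that the results turn on were checked against defining transcripts first. In the rat CD4 Tc cluster Cd3e stood between 563 and 1098 CPM over the 6 tissues, but Cd4 at 0 to 14.98 CPM and Cd8a at 126 to 440 CPM. The rat NK cluster had Ncr1 at 136 to 426 CPM in all 6 tissues. In pia, however, it also held Cd3e at 480 CPM and Cd8b at 224 CPM, against 0 to 113 CPM of Cd3e in the NK cells of the other 5 tissues, so pia NK values below include T cell transcripts. In the mouse ILC cluster Cd3e was at 203 CPM in EAE and 5.198 CPM in naive cells, Trac at 313 CPM in EAE and 16.1 CPM in naive cells, and Cd4 at 102 CPM in EAE and 0.945 CPM in naive cells. All 53 EAE cells of the ILC cluster held a UMI of the T cell receptor complex, against 410 of 507 naive cells. The library labelled EAE therefore has T cell transcripts in the cluster named ILC, and every EAE value of ILC below rests on those 53 cells. In the cluster named CD4Tc T cell transcripts were also higher in EAE. Cd4 stood at 164 CPM in EAE and 28.3 CPM in naive cells, and Trac at 678 CPM in EAE and 271 CPM in naive cells. A T cell receptor complex UMI was present in 98.7% of EAE and 94.3% of naive NK cells of the mouse, so a single such UMI does not mark a T cell there. In the cluster named Treg, Foxp3 was found in 71 of 116 EAE and 7 of 30 naive cells, and Cd8a stood at 47.2 CPM in EAE and 164 CPM in naive cells, against 122 CPM in EAE and 153 CPM in naive CD8Tc. Its proliferation genes summed to 5183 CPM in EAE and 4004 CPM in naive cells, against 209 to 764 CPM in the other 5 clusters. The Treg name is thus used below as deposited, for cells of which many lack a Foxp3 UMI. The mouse CD8Tc cluster held Trdc at 122 CPM in EAE and 94.7 CPM in naive cells, beside the Cd8a levels just given. Its Trac stood at 366 CPM in EAE and 692 CPM in naive cells. Whether its mix of cells differs between the conditions was not tested.

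**Figure D1:**
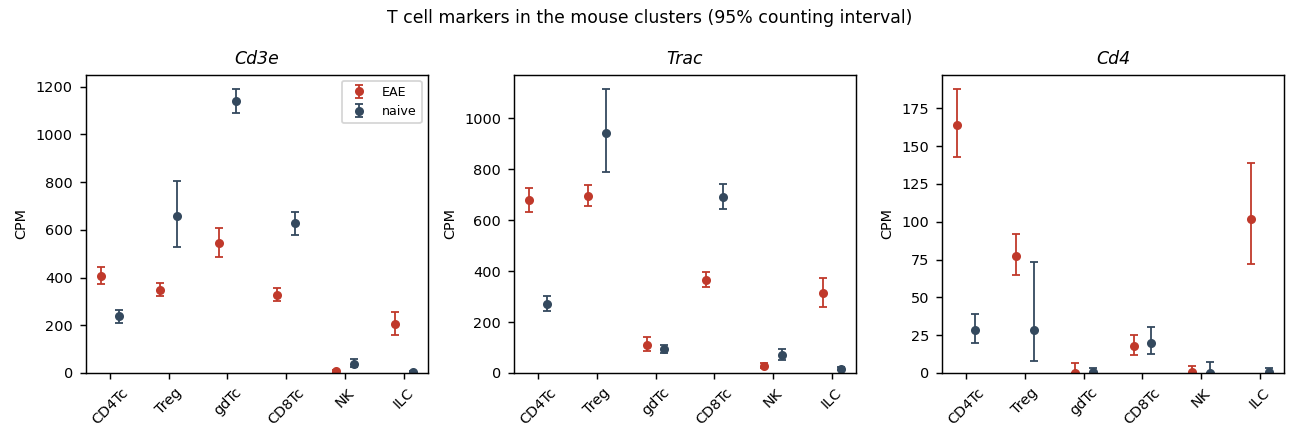
Levels of Cd3e, Trac and Cd4 (CPM, with 95% counting intervals) in the 6 mouse clusters, EAE left of naive. In the ILC cluster Cd3e is at 203 CPM in EAE cells and 5.198 CPM in naive cells, and Cd4 is at 28.3 CPM in naive CD4Tc, against 164 CPM in EAE CD4Tc.

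Border tissues and blood were compared in the rat, the question being how T and NK cells of each compartment differ from those in the circulation. Gata3, Rora, Maf, Ikzf2 and Bhlhe40 were higher in CD4 Tc of dura and pia than in CD4 Tc of blood, while Gata3 in CSF cells was no higher than in blood. In dura, these were the members with 20 or more UMIs and all 5 were past 2-fold above blood, where 28.3% of 7138 genes were called. In pia the same 5 members were called higher, where 32.8% of genes were called. Rora, Maf, Ikzf2 and Bhlhe40 reached 20 UMIs chiefly through the dura and pia cells, so their number supports nothing by itself. In CNS Gata3 alone could be called and was higher, where 24.9% of genes were called. In CP Gata3 alone had enough UMIs and was not called, where 29.4% of genes were called. In CSF Rora was called higher among the 3 members with 20 UMIs, where 24.8% of genes were called, a share near the background. Every one of these comparisons shares the blood library. Myeloid marker transcripts summed to 2668 to 6269 CPM over the 3 dura clusters, in CP to 4289 to 7239 CPM, in CNS to 7118 to 17956 CPM, the highest in CD4 Tc, and over the blood clusters to 659 to 1507 CPM. Stress and dissociation genes summed to 6527 to 7867 CPM in dura, 6066 to 10356 CPM in pia and 868 to 1274 CPM in blood. Their part in the results was not tested.

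Gata3 was the most widely counted of the 8 genes in rat CD4 Tc. Its level was 337 CPM in dura (interval 300 to 376), 306 CPM in pia (255 to 364), 61.7 CPM in CP (28.2 to 117), 327 CPM in CNS (247 to 424), 81.8 CPM in CSF (72.4 to 92.1) and 104 CPM in blood (90.9 to 119). Dura, CNS and pia formed the upper group and their intervals overlapped, and CSF and CP were the lowest, also with overlapping intervals. The level in dura was 3.23-fold that in blood (2.70 to 3.85), in pia 2.93-fold (2.34 to 3.67) and in CNS 3.13-fold (2.29 to 4.22). In CSF the ratio to blood was 0.784 (0.653 to 0.941), which did not pass 2-fold, and with another scaling of the libraries it was close to 1, as given with the other settings. A Gata3 UMI was found in 31.0% of dura CD4 Tc (median 1376 UMIs per cell) and 23.5% of blood CD4 Tc (2645 UMIs). With every cell thinned to 500 UMIs the shares became 14.5% in dura and 5.09% in blood. Among B cells of the cluster Bc1, which should lack the gene, the share was 0.1196% in dura (median 850.5 UMIs) and 0.0816% in blood (1482.5 UMIs).

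Rora separated dura from blood most widely among the members that had UMIs in every tissue. It stood at 149 CPM in dura (138 UMIs), 72.9 CPM in pia (30 UMIs), 34.3 CPM in CP (5 UMIs), 70.0 CPM in CNS (12 UMIs), 7.16 CPM in CSF (24 UMIs) and 2.42 CPM in blood (5 UMIs). All 4 solid tissues lay above CSF and blood. The level in dura was 61.6-fold that in blood (25.8 to 193), in pia 30.2-fold (11.6 to 99.6) and in CSF 2.97-fold (1.11 to 9.95). Rora UMIs were found in 16.9% of dura and 0.676% of blood CD4 Tc, and at 500 UMIs per cell in 6.28% of dura and 0.102% of blood cells, the last being less than 1 cell. In Bc1 cells the share was 0.239% in dura, and 0 of 1226 blood cells held a UMI (upper limit 0.245%).

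**Figure D2:**
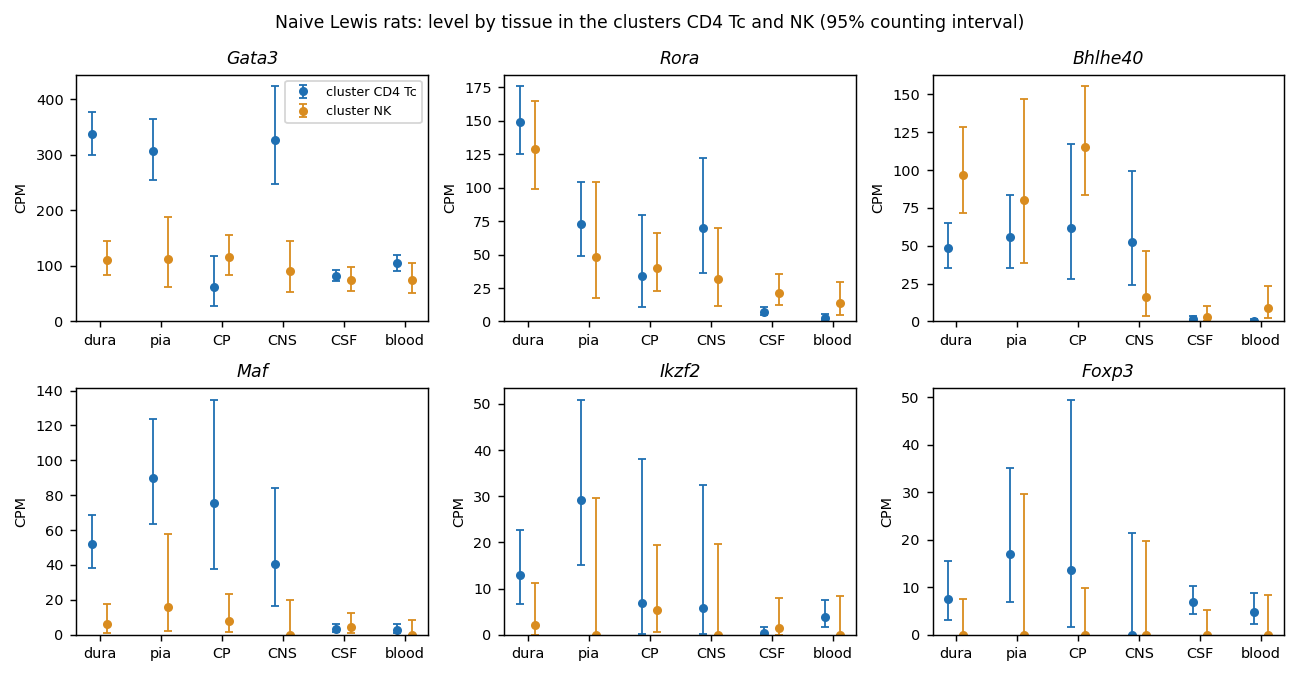
Levels (CPM, with 95% counting intervals) of Gata3, Rora, Bhlhe40, Maf, Ikzf2 and Foxp3 in the CD4 Tc and NK clusters of dura, pia, CP, CNS, CSF and blood of naive rats. Rora in CD4 Tc stands at 149 CPM in dura and 2.42 CPM in blood, and Gata3 in CD4 Tc at 337 CPM in dura and 104 CPM in blood.

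Of the regulatory T cell factors, Foxp3 was rare in the rat. It had 7 UMIs in dura CD4 Tc (7.55 CPM), 7 in pia (17.0 CPM), 2 in CP, 0 in CNS, 23 in CSF (6.87 CPM) and 10 in blood (4.83 CPM). The ratio of CSF to blood was 1.42 (0.651 to 3.35), within counting error. Rat CD8 Tc and NK clusters held 0 Foxp3 UMIs in every tissue. Ikzf2 stood at 12.9 CPM in dura (12 UMIs), 29.2 CPM in pia (12 UMIs), 1 UMI each in CP, CNS and CSF, and 3.87 CPM in blood (8 UMIs), with ratios to blood of 3.35 in dura (1.26 to 9.45) and 7.54 in pia (2.84 to 21.3). The cells with both were few and came from dura (1 cell), pia (2 cells) and CP (1 cell), while in CSF 0 of 19 and in blood 0 of 9 cells with Foxp3 held Ikzf2. Over all 6 libraries an Ikzf2 UMI was found in 4 of 41 CD4 Tc with a Foxp3 UMI (9.76%, 2.72 to 23.1) and in 26 of 3485 without one (0.746%), a pool of tissues whose Ikzf2 levels differ. Cells with Foxp3 had Ctla4, an inhibitory receptor of regulatory T cells, at 54.7 CPM, against 15.9 CPM in cells without. Tissues were pooled for Ctla4 as well. The 41 cells with Foxp3 had a median of 1857 UMIs, so its level there rests on few Ctla4 UMIs.

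Maf and Bhlhe40 were both near 0 in blood and CSF CD4 Tc and present in the solid tissues. Maf stood at 51.8 CPM in dura (48 UMIs), 89.9 CPM in pia (37 UMIs), 75.4 CPM in CP (11 UMIs), 40.8 CPM in CNS (7 UMIs), 3.58 CPM in CSF (12 UMIs) and 2.90 CPM in blood (6 UMIs). Its level in dura was 17.9-fold that in blood (7.63 to 51.1) and in pia 31.0-fold (13.0 to 89.9). Maf is also a macrophage gene, and it stood at 142 CPM in the pial and 81.8 CPM in the dural cells of the cluster myeloid 2. Without the 10% of CD4 Tc richest in markers of other lineages the log2 ratio of Maf in pia was 5.15, and 4.95 with them. Bhlhe40 stood at 48.5 CPM in dura (45 UMIs), 55.9 CPM in pia (23 UMIs), 61.7 CPM in CP (9 UMIs), 52.5 CPM in CNS (9 UMIs), 1.49 CPM in CSF (5 UMIs) and at 0 UMIs in blood. Set against a limit of 3 UMIs in the blood sum, it was 33.49-fold higher in dura and 38.55-fold higher in pia. The lower ends of the counting intervals were 26.1-fold in dura and 28.9-fold in pia. Zbtb16 had 7 UMIs in dura CD4 Tc (7.55 CPM) and at most 2 in any other tissue, and Bcl6 had 11 UMIs in CSF and at most 3 elsewhere, so neither could be compared between tissues.

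The promoters of the pair with the widest rat differences are shown because BHLHE40 binds the E-box CACGTG and RORα a site with the core AGGTCA. The windows run from 250 bases before to 50 after the RefSeq start in the rat build GRCr8, on the + strand, chr4:143174200-143174499 for Bhlhe40 and chr8:78816005-78816304 for Rora. Capitals mark the E-box.
Bhlhe40: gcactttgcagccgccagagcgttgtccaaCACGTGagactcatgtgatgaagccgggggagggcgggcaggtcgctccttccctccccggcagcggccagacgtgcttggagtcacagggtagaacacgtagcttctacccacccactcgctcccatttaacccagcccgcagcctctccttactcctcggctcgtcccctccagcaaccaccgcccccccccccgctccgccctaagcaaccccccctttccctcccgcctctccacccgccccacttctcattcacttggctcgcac
Rora: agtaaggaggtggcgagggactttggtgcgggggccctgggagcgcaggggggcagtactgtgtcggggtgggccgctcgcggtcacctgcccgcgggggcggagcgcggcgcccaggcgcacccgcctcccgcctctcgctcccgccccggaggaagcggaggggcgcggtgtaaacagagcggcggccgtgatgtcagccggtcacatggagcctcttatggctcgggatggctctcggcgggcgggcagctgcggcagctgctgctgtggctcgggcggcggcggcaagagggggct
The Bhlhe40 window holds 1 E-box, 220 bases before the start, and the Rora window none. Bcl6 holds one 197 bases before its start, and no other match to the E-box or the ROR core was found on either strand in the 7 member promoters in the table, which lacks Zbtb16. The GATA motif AGATAA was not found in them either. Of 33465 rat promoters of that length 6.42% hold the E-box, 16.2% the ROR core and 11.6% the GATA motif. A match is a description of the letters only. The windows are rich in G and C, 65.7% for Bhlhe40 and 74.7% for Rora.

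Inside the rat CD4 Tc cluster, Gata3 was unevenly spread between cells with and without T cell receptor transcripts. Receptor transcripts here are UMIs of Cd3e, Cd3d, Cd3g, Trac, Trbc1, Trbc2 and Trdc, as far as the rat counts include these genes. Trac is not among the rat genes, so it was not looked for. Of the dura cells, 128 of 591 (21.7%) held no such UMI, as did 110 of 495 in pia, 50 of 1531 in CSF and 2 of 740 in blood. In dura, 64.1% of the cells without such a UMI held Gata3 (55.1 to 72.4, median 1335 UMIs), against 21.8% of those with one (18.1 to 25.9, median 1376 UMIs). In CSF the shares were 54.0% of cells without (median 1866 UMIs) and 12.6% of cells with the UMI (2047 UMIs), and in pia 34.6% without (822.5 UMIs) and 13.8% with (737 UMIs). The Gata3 level in dura was 752 CPM in cells without and 228 CPM in cells with receptor transcripts, and Rora stood at 245 CPM without and 124 CPM with them. In pia Rora stood at 180 CPM in cells without and 43.4 CPM in cells with receptor transcripts, and in CSF at 47.1 CPM without and 5.86 CPM with them. Bhlhe40 stood at 83.5 CPM without and 39.4 CPM with them in dura. Maf, at 36.5 CPM without and 55.8 CPM with, and Ikzf2, at 0 UMIs without and 16.3 CPM with, did not share that direction. Il1rl1, the IL-33 receptor gene, and Il2ra, the IL-2 receptor alpha chain gene, were picked for this split after their values were seen. Il1rl1 stood at 104 CPM in dura cells without and 9.52 CPM in those with receptor transcripts, and Il2ra at 590 CPM without and 233 CPM with them.

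With the cells lacking receptor transcripts left out, the members remained higher in dura than in blood. Gata3 then stood at 228 CPM in dura and 105 CPM in blood, a log2 ratio of 1.13, against 1.69 with all cells. Rora stood at 124 CPM in dura and 2.42 CPM in blood, Maf at 55.8 CPM in dura and 2.91 CPM in blood, and Ikzf2 at 16.3 CPM in dura and 3.87 CPM in blood. This comparison was added after the data were seen. In pia 3 members were called among these cells, against 5 with all cells. Of the rat NK cells, 49.6% in dura and 80.65% in blood also held a receptor UMI. The split therefore does not set T cells apart from other lymphocytes.

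**Figure D3:**
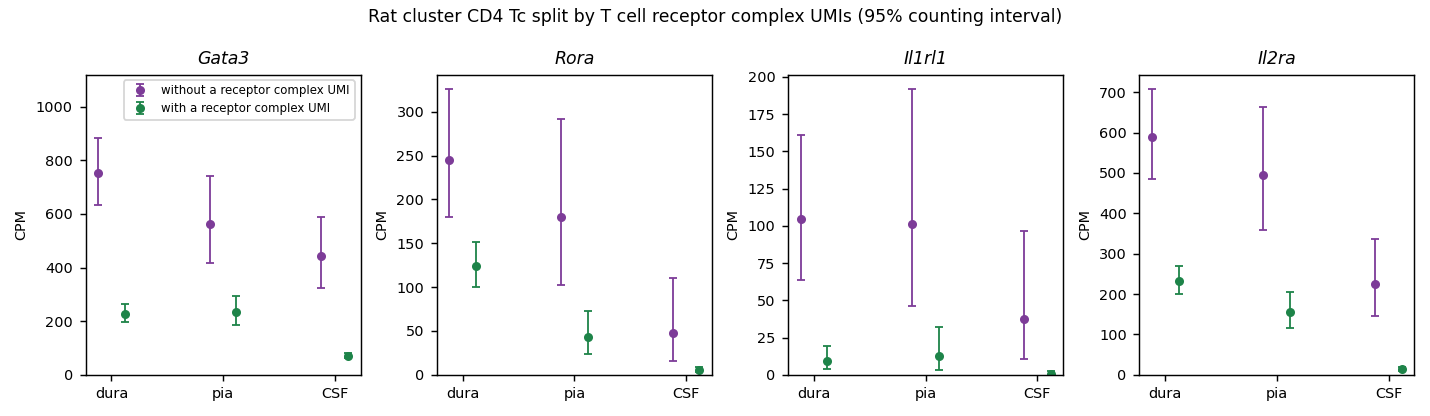
Levels (CPM, with 95% counting intervals) of Gata3, Rora, Il1rl1 and Il2ra in rat CD4 Tc of dura, pia and CSF, for cells without (left) and with (right) a UMI of the T cell receptor complex. Gata3 in dura is at 752 CPM in cells without and 228 CPM in cells with such a UMI, and cells without are higher for all 4 genes in all 3 tissues.

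Other genes of these pathways in dura CD4 Tc, taken from lists chosen for this tissue, are to be read against the 28.3% of all genes called there. Most of the listed type 17 and type 2 genes, too, reached 20 UMIs through the dura cells. Of 25 other lineage factors with 20 UMIs, 7 were higher than in blood and 6 lower, with a median log2 ratio of 0.16. Nr4a1, an immediate early factor of receptor signalling that is also on the list of stress genes, stood at 799 CPM in dura and 14.5 CPM in blood. Lef1, a factor of resting T cells, stood at 28.1 CPM in dura and 619 CPM in blood. The 8 type 17 genes with 20 UMIs were higher, led by Il17a at 175 CPM in dura and 0.483 CPM in blood, and so were 3 of 4 type 2 genes, among them the prostaglandin D synthase gene Hpgds at 50.7 CPM in dura and 0.483 CPM in blood. Of 11 regulatory T cell genes 8 were higher and 0 lower, with Il2ra at 306 CPM in dura and 13.0 CPM in blood. Within dura, Il2ra was higher in the cells without receptor transcripts, as given above. Foxp3 itself, with 7 UMIs in dura, was too rare to be called. Of 6 follicular helper genes 1 was higher and 3 were lower, Sh2d1a standing at 39.9 CPM in dura and 163 CPM in blood. In CSF CD4 Tc, where 24.8% of all genes were called, 0 of 10 regulatory genes were higher and 1 was lower, and 5 of 25 other factors were higher and 3 lower, with Zeb2 at 7.46 CPM in CSF and 1.45 CPM in blood.

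In rat NK cells Bhlhe40 and Rora were higher in dura and CP than in blood, and Gata3 was not past 2-fold. These 3 members had 20 UMIs, and 2 were called in each tissue, where 21.3% of genes were called in dura and 25.4% in CP. Rora and Bhlhe40 reached 20 UMIs chiefly through the dura and CP cells, so the number called supports nothing by itself. Bhlhe40 stood at 96.8 CPM in dura, 80.0 CPM in pia, 115 CPM in CP, 16.0 CPM in CNS, 2.85 CPM in CSF and 9.07 CPM in blood. Its level in dura was 10.7-fold that in blood (3.91 to 40.8) and in CP 12.7-fold (4.62 to 48.8). Rora stood at 129 CPM in dura, 48.0 CPM in pia, 40.2 CPM in CP, 32.0 CPM in CNS, 21.4 CPM in CSF and 13.6 CPM in blood, with 9.49-fold in dura (4.13 to 26.8) and 2.96-fold in CP (1.08 to 9.30) over blood. Without the 10% of NK cells richest in markers of other lineages Rora in CP had a log2 ratio of 1.13 but fewer than 20 UMIs, so that 1 member was called there. Gata3 stood between 74.2 and 115 CPM in NK cells of the 6 tissues, with ratios to blood of 1.48 in dura (0.946 to 2.36) and 1.54 in CP (0.957 to 2.50). Of 17 other lineage factors in dura NK cells 6 were higher and 2 lower, led by the aryl hydrocarbon receptor gene Ahr at 101 CPM in dura and 4.53 CPM in blood. In the small CD8 Tc cluster only Gata3 could be compared and it was not called in dura, where 19.8% of genes were called, or in CSF, where 27.5% were. It stood at 76.0 CPM in dura, 90.3 CPM in CSF and 87.5 CPM in blood.

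EAE and naive dura were compared in the mouse, the question being how the factors stand in T, NK and innate lymphoid cells at the peak of disease. Bhlhe40 fell past 2-fold in 5 of 6 clusters, Gata3 and Maf in 3 each and Rora in 2, while Ikzf2 rose in CD8Tc and fell in CD4Tc. In CD8Tc 5 of 6 members with 20 UMIs were called, 1 higher and 4 lower, where 14.3% of genes were called. In NK cells 3 of 6 were called, all lower, where 15.1% of genes were called, and in CD4Tc 3 of 6, all lower, where 26.5% were. In ILC 1 of 7 was higher and 2 were lower, where 35.5% of genes were called, a share near the background. The ILC calls depend on the scaling, and with TMM 4 members were called, all lower, with Gata3 at a log2 ratio of -3.19, Bhlhe40 at -2.09, Rora at -1.51 and Bcl6 at -1.14, and 5 with median-ratio scaling. In Treg 1 of 6 and in gdTc, the gamma delta T cells, 1 of 7 were called, both lower, where 24.7% and 16.8% of genes were called, shares near the background. The median log2 ratio of the members was -1.01 in CD4Tc, -1.43 in CD8Tc, -0.68 in Treg, -0.29 in gdTc, -1.08 in NK and -0.42 in ILC, and over all genes it was 0.22, -0.09, 0.08, 0.08, -0.02 and 0.52 in that order of clusters. Several things moved with the condition. Neutrophil marker transcripts summed to 3703 to 8289 CPM in the 6 EAE clusters and 157 to 225 CPM in the naive ones, myeloid markers to 1835 to 2430 CPM in EAE and 428 to 562 CPM in naive clusters, and stress and dissociation genes to 3564 to 11144 CPM in EAE and 7837 to 23749 CPM in naive clusters. Without the 10% of cells richest in markers of other lineages, 3 members were called in CD4Tc, 5 in CD8Tc and 3 in NK cells, the same numbers as with all cells, and 2 each in Treg, gdTc and ILC. Leaving out every cell with such markers left 0 EAE cells in these clusters. The 10% setting therefore does not remove those transcripts from the EAE sums. The depth of the shallowest EAE cell, 5722 UMIs, was also used as a minimum. The numbers were then lower in CD8Tc (3), NK cells (1) and ILC (2), and in gdTc 1, as with all cells. Among the cells of that depth Gata3 in CD8Tc had a log2 ratio of -0.78, Rora -0.89 and Ikzf2 0.43, none past 2-fold. Bcl6 in CD8Tc was called at -1.07. In NK cells Bhlhe40 stayed past 2-fold at -1.28, and Rora and Maf did not. In gdTc Bhlhe40 was at -0.76, no longer past 2-fold, and Gata3 at -2.09, past it, so the called member was another. CD4Tc and Treg had too few naive cells of that depth. The part of stress genes in the results was not tested.

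**Figure D4:**
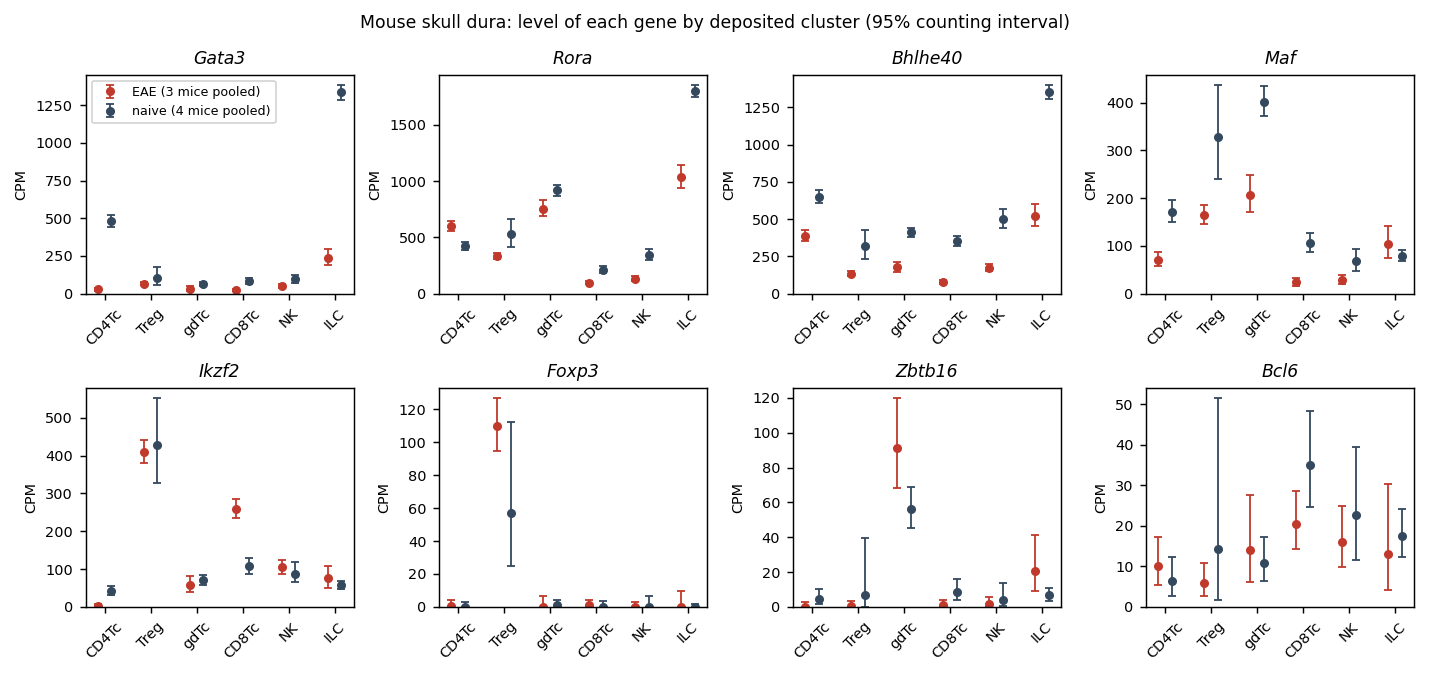
Levels (CPM, with 95% counting intervals) of the 8 transcription factors in the 6 mouse dura clusters, EAE left of naive. Gata3 in CD4Tc is at 27.9 CPM in EAE and 480 CPM in naive cells, and Foxp3 is counted in Treg, at 110 CPM in EAE and 57.1 CPM in naive cells.

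Gata3 lies at chr2:9857078-9890034 on the minus strand of the mouse build mm10. Its level in CD4Tc was 27.9 CPM in EAE (36 UMIs) and 480 CPM in naive cells (611 UMIs), 17.2-fold lower in EAE (12.3 to 24.8). In ILC it was 240 CPM in EAE and 1334 CPM in naive cells, 5.57-fold lower (4.52 to 6.93), and in CD8Tc 25.3 CPM in EAE and 83.3 CPM in naive cells, 3.30-fold lower (2.26 to 4.86). The other 3 clusters did not pass 2-fold, with 51.5 CPM in EAE and 95.9 CPM in naive NK cells, 66.1 CPM in EAE and 107 CPM in naive Treg, and 33.4 CPM in EAE and 62.3 CPM in naive gdTc. Naive ILC stood highest of the 12 sums, naive CD4Tc next and EAE ILC after it. A Gata3 UMI was found in 17.8% of EAE CD4Tc (median 7318.5 UMIs) and 64.0% of naive CD4Tc (3445 UMIs), and with cells thinned to 1000 UMIs in 2.80% of EAE and 32.3% of naive cells. In ILC the thinned shares were 14.8% in EAE and 64.8% in naive cells, against 35.9% in EAE and 90.9% in naive cells before thinning. In the B cell cluster 0 of 25 EAE cells held Gata3 (upper limit 12.0%) and 2.70% of naive cells did, at medians of 8395 UMIs in EAE and 2980.5 UMIs in naive cells.

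The naive CD4Tc with a Gata3 UMI differed in other transcripts from those without one. Il1rl1 stood at 247 CPM in cells with and 105 CPM in cells without Gata3, the T cell receptor complex sum at 2104 CPM with and 4631 CPM without, Cd4 at 15.1 CPM with and 56.1 CPM without, and Ctla4 at 15.1 CPM with and 161 CPM without. In EAE CD4Tc the receptor complex sum was 6372 CPM in cells with and 6252 CPM in cells without Gata3, and Il1rl1 had 0 UMIs in the 27 cells with Gata3. Rora stood at 364 CPM in naive CD4Tc with and 544 CPM in those without Gata3. These genes were picked after their values were seen. Cells without a receptor complex UMI were 33 of 353 in naive CD4Tc, of which 75.8% held Gata3, against 62.8% of those with one. With cells lacking such a UMI left out, 33 in naive dura and 1 in EAE, 3 members were called in CD4Tc, as with all cells. So few cells were left out that the number could hardly change, and it does not show what the remaining cells are.

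Genes of the type 2 list were mostly lower in EAE in CD4Tc and ILC. Whether Gata3 has a part in this was not tested. Of 17 type 2 genes with 20 UMIs in CD4Tc 1 was higher and 14 were lower in EAE, where 26.5% of all genes were called, with a median log2 ratio of -3.63. Il1rl1 stood at 2.33 CPM in EAE and 201 CPM in naive cells, Csf2, which encodes GM-CSF, at 14.7 CPM in EAE and 695 CPM in naive cells, and Il4 at 0 UMIs in EAE and 71.5 CPM in naive cells. Of 19 type 2 genes in ILC 2 were higher and 14 lower, where 35.5% of all genes were called, with Csf2 at 52.1 CPM in EAE and 3652 CPM in naive cells and Il4 at 5.21 CPM in EAE and 116 CPM in naive cells. In the ILC cluster all 12 genes with 20 UMIs on a wider list of T cell receptor genes, which also holds Cd4 and Cd8a, were higher in EAE. Their median log2 ratio was 4.30. How far the cluster holds different kinds of cells in the 2 conditions, and how far the same cells changed, cannot be told apart.

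Rora, at chr9:68653786-69388246, did not move with Gata3 in CD4Tc. It stood there at 598 CPM in EAE and 422 CPM in naive cells, 1.42-fold higher in EAE (1.27 to 1.58), which is not past 2-fold. In NK cells it fell to 134 CPM in EAE, against 344 CPM in naive cells, 2.58-fold lower (2.08 to 3.199), and in CD8Tc to 97.0 CPM in EAE, against 213 CPM in naive cells, 2.20-fold lower (1.79 to 2.70). ILC had 1037 CPM in EAE and 1800 CPM in naive cells, gdTc 755 CPM in EAE and 917 CPM in naive cells, and Treg 336 CPM in EAE and 528 CPM in naive cells, none past 2-fold. In ILC the log2 ratio was -0.80, but -1.51 with TMM and -1.37 with median-ratio scaling, past 2-fold in both. In both conditions ILC and gdTc carried the highest levels, and CD8Tc and NK the lowest. Among NK cells with at least 5722 UMIs the log2 ratio of Rora was -0.15, against -1.37 with all cells. B cells stood at 28.6 CPM in EAE and 27.6 CPM in naive dura.

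Foxp3, at chrX:7573644-7595245, was counted in the cluster named Treg and nearly nowhere else. It had 186 UMIs in EAE Treg (110 CPM) and 8 in naive Treg (57.1 CPM), a ratio of 1.92 (0.955 to 4.52), and 0 to 2 UMIs in each of the other clusters. A Foxp3 UMI was found in 71 of 116 EAE Treg (61.2%, median 11999 UMIs) and 7 of 30 naive Treg (23.3%, median 2802.5 UMIs). Thinned to 1000 UMIs, the shares were 12.6% in EAE and 8.30% in naive Treg, with overlapping intervals. Among B cells 2 of 25 EAE cells held a Foxp3 UMI and 0 of 74 naive cells did (upper limit 4.05%). The numbers of Treg in the files, 116 in EAE and 30 in naive dura, also set the precision here.

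Ikzf2, at chr1:69531214-69687245, was highest in Treg, with 409 CPM in EAE and 428 CPM in naive cells, and moved in opposite directions in the clusters named CD8Tc and CD4Tc. In CD8Tc it rose to 259 CPM in EAE, against 107 CPM in naive cells, 2.42-fold higher (1.96 to 3.00). In CD4Tc it fell to 3.88 CPM in EAE (5 UMIs), against 43.2 CPM in naive cells (55 UMIs), 11.2-fold lower (4.50 to 35.7). An Ikzf2 UMI was found in 62.0% of EAE and 17.9% of naive CD8Tc, and thinned to 1000 UMIs in 20.5% of EAE and 6.74% of naive CD8Tc. Among B cells 2 of 25 EAE and 0 of 74 naive cells held one. Among CD8Tc with at least 5722 UMIs the log2 ratio was 0.43, against 1.27 with all cells, which is not past 2-fold. NK cells had 105 CPM in EAE and 88.4 CPM in naive dura, ILC 75.5 CPM in EAE and 58.1 CPM in naive dura, and gdTc 58.0 CPM in EAE and 70.7 CPM in naive dura.

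Within EAE Treg, Ikzf2 was seen mainly in the cells with Foxp3. An Ikzf2 UMI was found in 67 of 71 Treg with a Foxp3 UMI (94.4%, 86.2 to 98.4) and in 14 of 45 without one (31.1%, 18.2 to 46.7), although the median depth was 11039 UMIs in cells with and 14344 in cells without Foxp3. The Ikzf2 level was 623 CPM in cells with and 116 CPM in cells without Foxp3. Maf stood at 239 CPM with and 65.7 CPM without, and Gata3 at 92.8 CPM with and 29.4 CPM without Foxp3. Rora stood at 354 CPM with and 311 CPM without, and Bhlhe40 was lower in cells with Foxp3, at 91.8 CPM, against 193 CPM in cells without. Ctla4 stood at 769 CPM with and 292 CPM without, and Klrg1, a receptor of terminally differentiated lymphocytes, at 260 CPM with and 49.0 CPM without, both picked after their values were seen. In naive Treg, Ikzf2 was found in 6 of 7 cells with and 17 of 23 cells without a Foxp3 UMI. Of 15 other regulatory T cell genes with 20 UMIs in Treg, 1 was higher and 1 lower in EAE, fewer than the 24.7% of all genes. Capg stood at 821 CPM in EAE and 200 CPM in naive Treg, and Nrp1 at 19.5 CPM in EAE and 57.1 CPM in naive Treg.

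Maf, at chr8:115682942-115707794 on the minus strand, fell in EAE in 3 clusters. In CD8Tc it stood at 23.5 CPM in EAE and 106 CPM in naive cells, 4.51-fold lower (3.12 to 6.64). In CD4Tc it stood at 71.3 CPM in EAE and 172 CPM in naive cells, 2.41-fold lower (1.88 to 3.11), and in NK cells at 28.2 CPM in EAE and 67.7 CPM in naive cells, also 2.41-fold lower (1.47 to 3.94). Treg had 166 CPM in EAE and 328 CPM in naive cells, gdTc 207 CPM in EAE and 403 CPM in naive cells, and ILC 104 CPM in EAE and 78.9 CPM in naive cells, none past 2-fold. Naive gdTc and naive Treg carried the most. Among NK cells with at least 5722 UMIs the direction turned, with a log2 ratio of 0.33, against -1.27 with all cells. B cells stood at 16.3 CPM in EAE and 23.6 CPM in naive dura, so the level of EAE CD8Tc was close to that of B cells.

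Zbtb16, at chr9:48654297-48836222, was a gdTc transcript in these data. It stood at 91.3 CPM in EAE and 56.2 CPM in naive gdTc, 1.63-fold higher in EAE (1.13 to 2.31), which is not past 2-fold. In ILC it stood at 20.8 CPM in EAE (8 UMIs) and 6.62 CPM in naive cells (14 UMIs), 3.15-fold higher in EAE (1.15 to 8.05), and with edgeR's TMM scaling the log2 ratio was 0.94, below 2-fold. No other cluster exceeded 8.52 CPM, and B cells held 0 UMIs. Of the gdTc with a Zbtb16 UMI, 100% in EAE and 92.3% in naive dura also held a Rora UMI. The shares among gdTc without a Zbtb16 UMI were close, at 97.7% in EAE and 90.0% in naive dura. Of 15 type 17 genes in gdTc 0 were higher and 3 lower in EAE, near the 16.8% of all genes, with Il17a at 105 CPM in EAE and 1726 CPM in naive cells. Of 10 genes linked to PLZF-dependent cells 2 were higher and 1 lower, with Fcer1g at 174 CPM in EAE and 29.6 CPM in naive gdTc.

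Bcl6, at chr16:23965052-23988852, was low in all 6 clusters and was not called with all cells and unscaled sums in the 5 where it had 20 UMIs. It stood at 20.6 CPM in EAE and 35.0 CPM in naive CD8Tc, where the naive sum was the highest of all, and at 10.1 CPM in EAE and 6.29 CPM in naive CD4Tc. NK cells, which were used as its background, had 16.1 CPM in EAE and 22.6 CPM in naive dura, so the CD4Tc level was below that background. Of 6 follicular helper genes in CD4Tc 2 were higher and 1 lower in EAE, with Pdcd1, which encodes PD-1, at 114 CPM in EAE and 33.8 CPM in naive cells.

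Bhlhe40, at chr6:108660629-108666925, was the member with the broadest difference in the mouse. It stood at 77.6 CPM in EAE and 352 CPM in naive CD8Tc, 4.54-fold lower (3.71 to 5.58). In NK cells it stood at 172 CPM in EAE and 502 CPM in naive dura, 2.92-fold lower (2.43 to 3.51), and in ILC at 521 CPM in EAE and 1352 CPM in naive dura, 2.60-fold lower (2.25 to 3.01). Treg had 135 CPM in EAE and 321 CPM in naive dura, 2.39-fold lower (1.70 to 3.30), and gdTc 177 CPM in EAE and 412 CPM in naive dura, 2.32-fold lower (1.88 to 2.89). CD4Tc had 388 CPM in EAE and 650 CPM in naive dura, 1.67-fold lower (1.496 to 1.87), which is not past 2-fold. B cells, with 57.1 CPM in EAE and 181 CPM in naive dura, differed in the same direction. Nr4a1 had the pattern most like Bhlhe40 over the 11 mouse sums of 50 or more cells, with a Pearson r of 0.930 on log2(CPM + 10). Nr4a1 is another factor induced by receptor signalling, and it is also on the list of stress and dissociation genes. Which of these the likeness reflects was not tested. In CD8Tc Nr4a1 stood at 77.6 CPM in EAE and 331 CPM in naive cells, and in NK cells at 126 CPM in EAE and 337 CPM in naive cells.

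**Figure D5:**
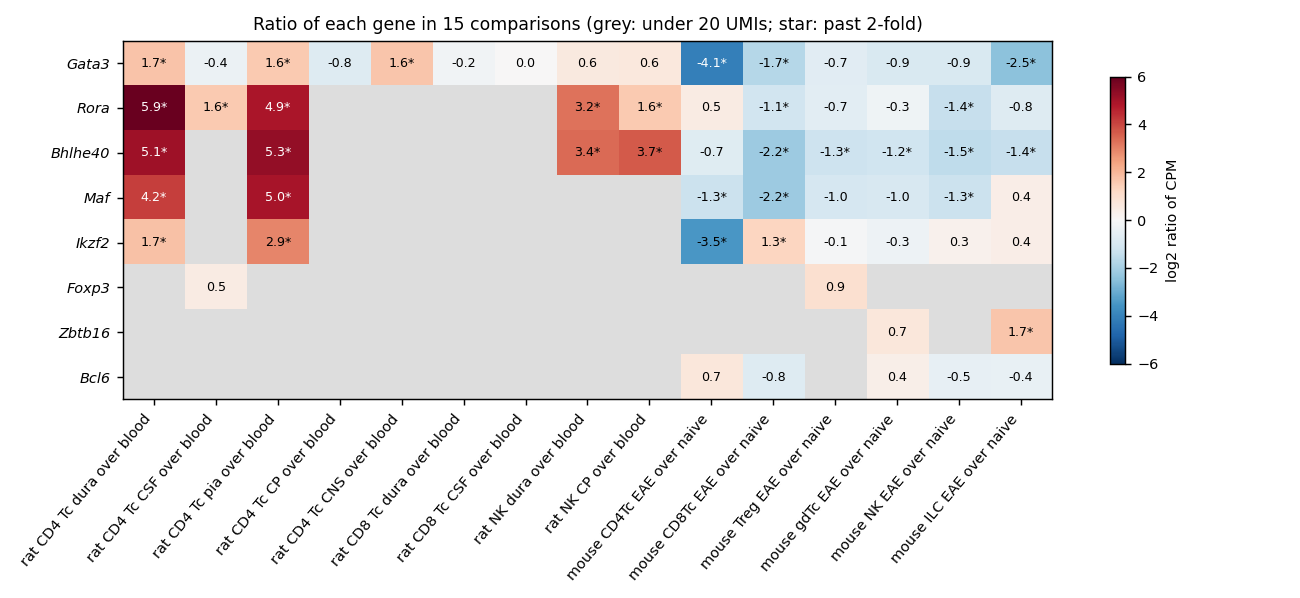
Log2 ratio of CPM for the 8 transcription factors (rows) in the 15 comparisons (columns), rat tissues over blood and mouse EAE over naive. Stars mark ratios past 2-fold and grey cells those with fewer than 20 UMIs over both sums, and the rat CD4 Tc columns of dura and pia hold 5 stars each.

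The other lineage factors in the mouse were called in both directions, and in CD8Tc, NK cells and gdTc about as often as all genes. Of 34 with 20 UMIs in CD4Tc 12 were higher and 5 lower in EAE, where 26.5% of all genes were called, among them Zeb2 at 92.3 CPM in EAE and 10.2 CPM in naive cells. Of 31 in CD8Tc 3 were higher and 3 lower, where 14.3% of all genes were called, with the repressor gene Id2 at 107 CPM in EAE and 310 CPM in naive cells. Of 31 in Treg 4 were higher and 7 lower, where 24.7% of all genes were called, with Klf2, a factor of recirculating T cells, at 83.8 CPM in EAE and 600 CPM in naive cells. Of 31 in NK cells 2 were higher and 3 lower, where 15.1% of all genes were called. Of 28 in gdTc 2 were higher and 3 lower, where 16.8% were, and of 31 in ILC 12 were higher and 4 lower, where 35.5% were.

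Genes with the pattern most like each member, by Pearson r of log2(CPM + 10) over cluster sums of at least 50 cells, are given as a description of sums that share libraries. Over 15 rat sums these were Adh6a (0.954), Tph1 and Il1rl1 (0.945 each) for Gata3. For rat Rora they were Anxa4 (0.909), Fgl2 (0.906) and Fbxo30 (0.880), for Maf Ramp3 (0.935), Pxdc1 (0.925) and Ctla4 (0.917), and for Bhlhe40 Zbed5 (0.931), Cd83 and Fosb (0.926 each). Over 11 mouse sums the first was Hs3st1 (0.961) for Gata3, Fam129a (0.954) for Rora, Hist1h3c (0.998) for Foxp3, Ftsj3 (0.838) for Ikzf2, Smco4 (0.943) for Maf, Dkk3 (0.958) for Zbtb16 and Rundc3b (0.881) for Bcl6. Il1rl1 was thus among the 3 genes nearest to Gata3 in the rat, and the Foxp3 pattern rests on 1 sum, that of EAE Treg.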

How the data were processed

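The 10x Genomics libraries (chemistry v2 for rat, v3 for mouse, per the labels' protocols) were deposited as raw UMI counts per gene and barcode. The authors made these counts with Cell Ranger 3.1.0 on Rnor_6.0 and mm10, per the submitters' processing notes, while the file headers give 3.0.2 for rat and 3.1.0 for mouse. Cluster names are those of the authors' deposited cell table. Barcodes with no cluster (5114 of 26301 rat, 771 of 8126 mouse) were left out, no further cell filter was applied, and doublets were not called. Counts were summed per cluster and library and divided by the summed total. Clusters under 20 cells got no share and no ratio. Every member was named in both species, and from each gene list up to 4 genes with the largest log2 ratio, 20 or more UMIs and an interval excluding 1. Members and lists were chosen with earlier results of these data known. Lists covered other lineage factors, type 2, type 17, regulatory, follicular helper, PLZF-linked and T cell receptor and coreceptor genes, beside markers of other lineages, proliferation and stress genes. For shares, cells were thinned to 500 UMIs in the rat (shallower cells left out: 46 of 495 in pia CD4 Tc and 9 of 116 in CP) and 1000 in the mouse (at most 2 cells of a cluster). Alternatives were edgeR's TMM factors, median-ratio scaling, cells weighted alike, a depth minimum, other UMI minimums, other thinning depths and exclusion of cells with other lineages' markers. Restriction to cells with a receptor complex UMI, and leaving out the 10% of cells richest in other lineages' markers, were chosen after seeing the data. Promoters are from RefSeq (GRCr8), mouse positions from GENCODE M21 (mm10). B cell receptor files were not used here. Python 3.11.15, numpy 2.4.6, pandas 2.3.3, scipy 1.17.1, matplotlib 3.10.9, R 4.3.3 and edgeR 4.0.16 were used. Nothing in the labels says that pools were replicated, so each group counts as 1 sample. The ratio calculation was tested on simulated data.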

Additional observations from a re-analysis of the deposited data

Results flagged for a closer look

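Ikzf2 moved in opposite directions in 2 T cell clusters of mouse dura. Its log2 ratio of EAE over naive was 1.27 in CD8Tc and -3.48 in CD4Tc, where the EAE sum held 5 UMIs. Among CD8Tc with at least 5722 UMIs it was 0.43, not past 2-fold. Rora had a log2 ratio of EAE over naive of 0.50 in mouse CD4Tc and -1.37 in NK cells, and both counting intervals excluded no change. Among NK cells with at least 5722 UMIs it was -0.15. In rat CD4 Tc, Gata3 had a log2 ratio over blood of 1.69 in dura and -0.35 in CSF, and both ratios use the same blood cells. With another scaling the CSF ratio was 0.05. With 1 library per group the difference was not tested in any of the 3 pairs.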

How the results depend on the processing

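Of 334 recomputed values, 301 stayed within the counting interval of the main value, 32 moved out of it and 1 reversed. A value counted as reversed only where a member called past 2-fold changed sign. Sign changes of members that were not called are among the other values. The reversed value was Maf in mouse NK cells, whose log2 ratio of EAE over naive became 0.33 among cells with at least 5722 UMIs, against -1.27. With that minimum 3 members were called in mouse CD8Tc, against 5, and 1 in NK cells, against 3. TMM and median-ratio scaling gave 2 called members in mouse Treg, against 1, and 3 in gdTc, against 1, and median-ratio scaling gave 5 in mouse ILC, against 3. TMM scaling shifted all log2 ratios by -0.71 in mouse ILC, which set Maf at -0.31 and Ikzf2 at -0.34 there, by 0.34 in CSF CD4 Tc, which set Gata3 at -0.01 (0.05 with median-ratio scaling), by 0.24 in NK cells of CP, by -0.23 in CNS CD4 Tc, by -0.20 in mouse CD4Tc, by 0.16 in CSF CD8 Tc, by -0.15 in gdTc and by 0.11 in mouse CD8Tc. Weighting cells alike gave 1 called member in CD4 Tc of CP, against 0, and 2 in gdTc, against 1. Leaving out cells with other lineages' markers, or the 10% richest in them, gave 1 in NK cells of CP, against 2, and without those 10% there were 2 in Treg and 2 in gdTc. CD4 Tc of pia with receptor transcripts gave 3, against 5. The median share of all genes past 2-fold over the comparisons was 40.2% with a minimum of 1 UMI, against 24.9%, and 12 rat shares were above 5% after thinning to 500 UMIs, against 34. The causes were not tested. Leaving out every cell with other lineages' markers left 0 EAE cells in the mouse clusters and 3 CNS CD4 Tc, so it gave no value there, and the depth minimum left 14 naive CD4Tc and 7 naive Treg, too few for a ratio. No paired analysis was possible because each group is 1 library.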
